A study of Homo sapiens with 2 samples.

Results

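The proteasome is the barrel-shaped protease that degrades proteins tagged with ubiquitin. Its 20S core stacks alpha rings, which gate the entrance, on beta rings, which hold the cutting sites in PSMB5, PSMB6 and PSMB7. The 19S cap has an ATPase ring that unfolds substrates, subunits that bind ubiquitin, and a lid that removes it. Other proteins chaperone assembly, and alternative activators such as PA28 can replace the cap. After interferon exposure many cells make PSMB8, PSMB9 and PSMB10, which take the places of PSMB5, PSMB6 and PSMB7 in an immunoproteasome.

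The genes described here are those of the constitutive particle, its assembly factors and its regulators. They were taken by gene symbol: every probe set with a single symbol in the PSMA, PSMB, PSMC, PSMD, PSME or PSMG series, or PSMF1, without PSMB8, PSMB9 and PSMB10. This gave 39 genes on 78 probe sets, of 19775 genes on 54613 probe sets in all. Each gene was read from its brightest probe set, and 38 of the 39 were measured, meaning a signal of 100 or more on either array. The exception was PSMA8, a testis-type alpha subunit, with a signal of 30.7 on the control array and 30.0 on the miR-129-3p array. The measured gene closest to that limit was PSMG1, with 246 on the brighter array. PSMA6 and PSME2 had only probe sets listed with a second gene and were left out. PSMB11, PSMC5, PSMD7 and PSMD13 were not analysed here.

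Both groups were cells of hTERT-RPE1, a telomerase-immortalised line from human retinal pigment epithelium, grown in medium with 10% fetal bovine serum and 0.01 mg/ml hygromycin B. One group received a control oligo and the other a miR-129-3p oligo with the same lipid reagent, and RNA was taken at 72 h. Each group had 1 Affymetrix array, so no value has a replicate error, no difference was tested, and differences compare these 2 arrays. The oligo sequences are not given in the labels, and each array stands for 1 transfected culture.

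The microRNA named in the labels has 2 mature forms in RefSeq (GRCh38.p14), printed here because an oligo of this microRNA is what distinguishes the groups; the labels do not say which form. They lie at chr7:128207920-128207941 and chr11:43581450-43581471, both on the plus strand. Capitals mark the seed, bases 2 to 8, which both forms share; they differ only at base 20.
hsa-miR-129-1-3p: aAGCCCUUaccccaaaaaguau
hsa-miR-129-2-3p: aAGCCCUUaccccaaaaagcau

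The median signal over all probe sets was 96.5 on the control array and 98.0 on the miR-129-3p array. Of 12 markers of retinal pigment epithelium, 5 reached 100: MITF, OTX2, PMEL, KRT8 and KRT18. The defining visual-cycle genes RPE65 and RLBP1 were not among them, with RPE65 at 6.44 and 6.66, and the signals of the 12 summed to 16357 for control and 11149 for miR-129-3p. That sum is carried by a few genes and they did not move together: MITF differed by -1.26, KRT18 by -0.96 and KRT8 by -0.32, but OTX2 by 0.16 and PMEL by 0.92. Of 5 blood cell markers only HBB reached 100, and their summed signals were 349.7 and 349.1. In bulk RNA, fewer cells of a type and less RNA per cell cannot be told apart.

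Most proteasome genes differed little between the arrays. The median log2 difference, miR-129-3p minus control on the scale of log2(signal + 16), was 0.10 over the 38 measured genes and 0.03 over all 12754 measured genes. At 1.5-fold, 2 of the 38 were higher, PSME1 and PSMG2, and 0 were lower. Among all measured genes 17.3% were higher by that much and 10.8% lower. At 2-fold the counts were 0 and 0, against 7.83% and 4.56% of all measured genes. The proteasome genes are bright on these arrays: 34 of them had a mean signal of 1000 or more, and all 34 values lay between -0.46 and 0.94. Among the 4232 genes of the series that bright, 17.3% were at least 1.5-fold higher and 12.6% lower, shares close to those of all measured genes.

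The differences were also narrowly spread. Their SD across the 38 genes was 0.31, against 0.81 across all measured genes and 0.95 across the bright ones. Within 0.25 of zero lay 23 of the 38 (60.5%), against 41.3% of all measured genes. Signs were nearly even, with 20 genes above 0 (52.6%) and 18 below, much like all measured genes, of which 52.9% were above 0. These are descriptions across genes, which are not independent replicates.

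**Figure D1:**
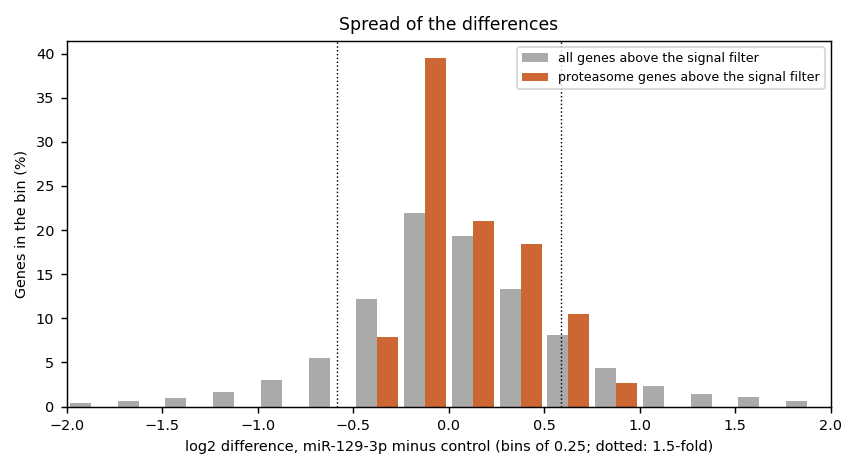
Share of genes in each 0.25-wide bin of the log2 difference, miR-129-3p minus control, for all 12754 measured genes (grey) and the 38 measured proteasome genes (orange), from -2 to 2; dotted lines mark 1.5-fold. The proteasome genes lie between -0.46 and 0.94, while the grey bars run past both ends of that range.

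Where a gene has several probe sets, their disagreement is the only spread at hand. It had a pooled SD of 0.33 over the 20 proteasome genes with 2 or more measured probe sets, about the size of the spread between the genes themselves, and of 0.37 over 6177 genes of the series. In 11 of those 20 genes all measured probe sets had the same sign. That share was not computed for the series, so whether it is high or low is not known. Of the 38 differences, 27 were smaller than that 0.33. Probe sets of a gene share the same 2 samples and are not replicates, and dim probe sets enter the pooled value. The 0.33 is therefore not the error of the bright probe sets used.

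The alpha ring, which forms the gate and docks the caps, had the highest median of the subcomplexes, 0.36 over 6 measured genes. It fell into 4 genes with higher signals on the miR-129-3p array and 2 with nearly equal ones. PSMA3 read 3867 on the control array and 5564 on the miR-129-3p array, which differ by 0.52 on the log2 scale (1.44-fold). PSMA4 read 4959 and 7033 (0.50), and PSMA5 read 2481 and 3344 (0.43). PSMA2 was at 0.30, and its other probe set at 0.57. None of the 4 reached 1.5-fold on the probe set used, although a dim second probe set of PSMA5 read 119.5 and 276 (1.11). On the probe sets used, PSMA1 and PSMA7 were nearly the same on both arrays, at 5469 and 5368 and at 6259 and 6113. All 3 probe sets of PSMA1 lay between -0.03 and 0.04, while the second probe set of PSMA7 read 1282 and 1016 (-0.33). The probe sets used for PSMA1 and PSMA7 end in _x_at, a mark for probes that can also bind other transcripts.

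The beta ring carries the proteolytic sites and was mostly slightly lower, with a median of -0.11 and 5 of 7 genes below 0. PSMB5, the chymotrypsin-like subunit and the main target of bortezomib, read 2776 and 2575, a difference of -0.11. PSMB6, the caspase-like subunit, read 3030 and 2647 (-0.19). The third catalytic gene went the other way: PSMB7, the trypsin-like subunit, read 3038 and 4315, a difference of 0.50 (1.42-fold), with 0.70 on its dimmer probe set. The structural subunits PSMB3 (-0.22), PSMB2 (-0.12), PSMB4 (-0.06) and PSMB1 (0.15) stayed close to zero on the probe sets used. PSMB2 shows how far dim probe sets can part, since its 4 measured ones ran from -0.72 to 0.66. Over the whole 20S core the median was -0.03 for 13 genes.

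**Figure D2:**
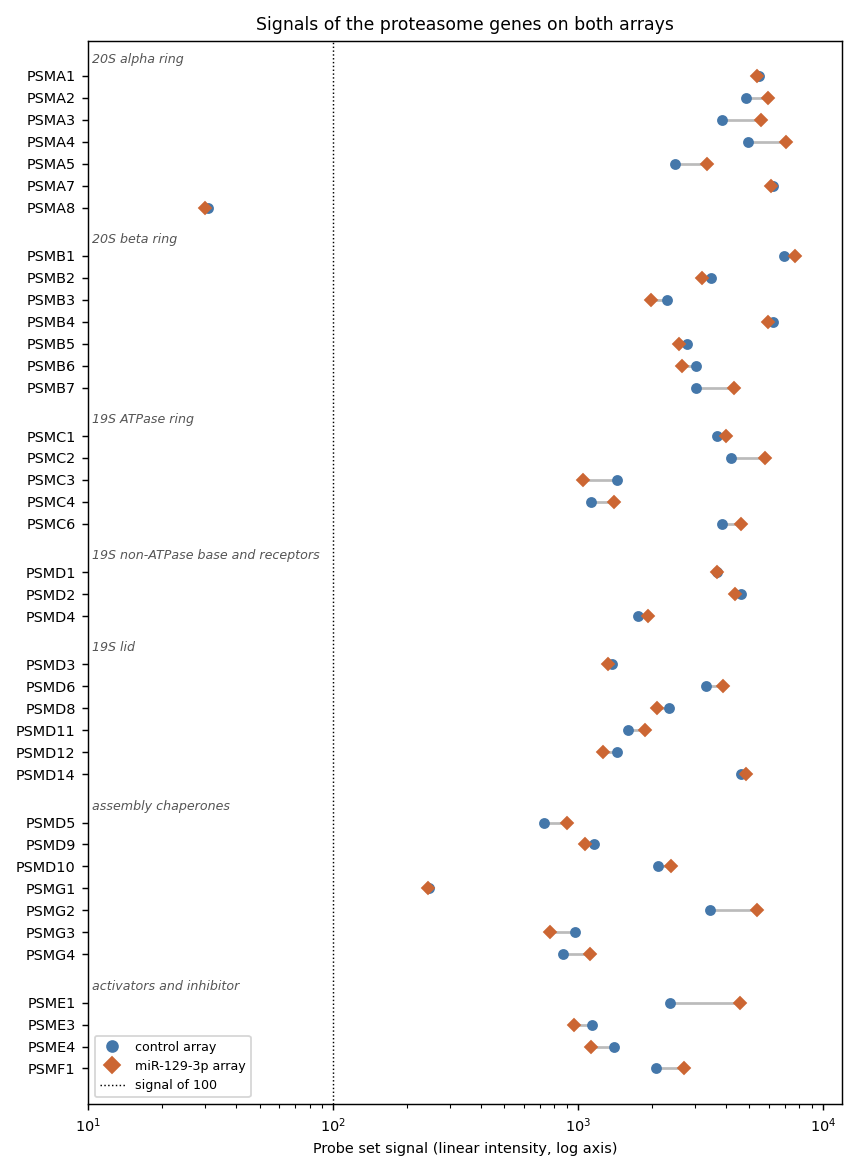
Signal of the probe set used for each of the 39 genes on the control array (blue circles) and the miR-129-3p array (orange diamonds), on a log axis, grouped by subcomplex; the dotted line marks a signal of 100. The paired symbols lie close together for most genes, PSME1 has the widest gap, and PSMA8 lies below the limit on both arrays.

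The ATPase ring, which unfolds substrates and opens the gate, held the lowest difference of the 38 proteasome genes beside some of the higher ones. PSMC3, an ATPase also known as RPT5, read 1442 on the control array and 1047 on the other, a difference of -0.46 (1.37-fold lower), on its only probe set. PSMC2 (RPT1) read 4207 and 5810, a difference of 0.46, and all 3 of its probe sets were higher, from 0.46 to 0.78. The rest of the ring was between these, with PSMC4 at 0.31, PSMC6 at 0.25 and PSMC1 at 0.13, and the median of 5 genes was 0.25. Genes of the same ring thus had unequal differences on these arrays.

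The non-ATPase base differed least. PSMD1, the large scaffold subunit, read 3702 and 3689, PSMD2 read 4639 and 4384, and the ubiquitin receptor PSMD4 read 1762 and 1935. These are differences of -0.01, -0.08 and 0.13. The lid genes of the selection were similar, with 6 of 6 measured ones within 0.25 of zero and a median of 0.00. PSMD14, the deubiquitinase that cuts ubiquitin off the substrate, read 4632 and 4826 (0.06). The others ran from PSMD12 at -0.18 and PSMD8 at -0.17 through PSMD3 at -0.06 to PSMD6 at 0.22 and PSMD11, also known as RPN6, at 0.24. The second probe set of PSMD11 read 332 and 542, a difference of 0.68. These 6 genes are not the whole lid. PSMD7 and PSMD13 were not analysed, and the lid subunit SEM1, whose symbol is outside the selection, was at -0.46. Over the 14 measured 19S genes of the selection the median was 0.10. On the probe sets used, 0 of the 27 subunits of core and cap were 1.5-fold higher and 0 lower. Among all measured genes 17.3% were higher by that much and 10.8% lower. Other, dimmer probe sets of PSMA5, PSMB2, PSMB7, PSMC2 and PSMD11 did pass 1.5-fold.

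**Figure D3:**
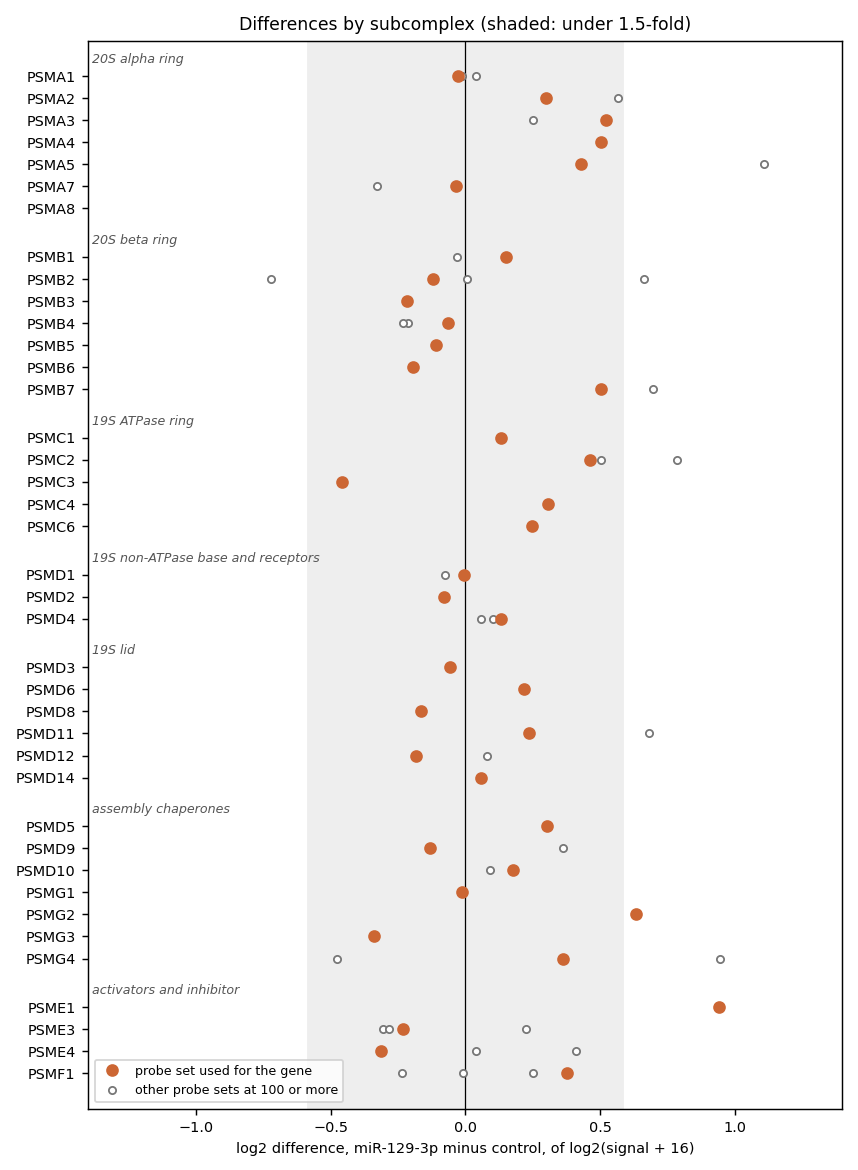
The log2 difference, miR-129-3p minus control, for the probe set used for each measured gene (filled) and for its other probe sets with a signal of 100 or more on either array (open), by subcomplex; the shaded band is under 1.5-fold. Filled points outside the band belong to PSMG2 (0.63) and PSME1 (0.94). Of the 32 open points, 6 lie above the band and 1 below it. For comparison, 17.3% of all measured genes, each on its brightest probe set, lie above such a band and 10.8% below it.

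Among assembly chaperones, PSMG2 passed 1.5-fold. PSMG2 forms a pair with PSMG1 that guides the alpha ring together. On its single probe set it read 3453 and, with miR-129-3p, 5363, a difference of 0.63 (1.55-fold). Its partner PSMG1 read 246 and 244 (-0.01), so the genes of that pair had unequal differences. The second pair, PSMG3 and PSMG4, was at -0.34 and 0.36, and PSMG4 had other probe sets at -0.48 and 0.95, so its direction depends on the probe set. For the chaperones of the ATPase ring, PSMD5 was at 0.30, PSMD10 (gankyrin) at 0.18 and PSMD9 at -0.13, with its other probe set at 0.36. The median of the 7 was 0.18.

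The activators held the widest contrast. PSME1 encodes the alpha subunit of PA28, an interferon-inducible activator linked to the making of peptides for antigen presentation. Its signal was 2376 on the control array against 4582 on the other, a difference of 0.94 (1.92-fold), and stood at rank 1099 from the top of 12754 measured genes. That was the largest difference among the measured proteasome genes, and it rests on 1 probe set. PSME3, the nuclear relative of the PA28 subunits, read 1136 and 965 (-0.23), with its 4 probe sets from -0.30 to 0.23. PSME4, which encodes the activator PA200, read 1401 and 1125 (-0.31), but its others were at 0.04 and 0.41. PSMF1, the inhibitor PI31, read 2079 and 2703 (0.38), and its probe sets ranged from -0.23 to 0.38. Leaving out PSME1, the 37 remaining genes had a median of 0.06. Of them 1 was at least 1.5-fold higher, against 17.3% of all measured genes.

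Immunoproteasome subunits, which the selection leaves out, gave a contrast within the same particle. PSMB9, which replaces PSMB6, read 495 for control and 5001 for miR-129-3p, a difference of 3.30. PSMB8, which replaces PSMB5, read 998 and 3287 (1.70), and PSMB10, which replaces PSMB7, read 463 and 1381 (1.55). All 3 were at least 2-fold higher, against 7.83% of all measured genes. The difference of PSMB9 exceeded that of PSMB6 by 3.49 on the log2 scale, that of PSMB8 exceeded that of PSMB5 by 1.81, and that of PSMB10 exceeded that of PSMB7 by 1.04. The smallest of these gaps was at the position where the constitutive subunit was itself higher and the immunoproteasome difference was smallest. These genes are also abundant in blood cells, whose markers PTPRC, CD14, CD3E and LYZ were under 100 on both arrays while HBB read 162 and 149; the part of blood cell RNA in these differences was not tested.

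**Figure D4:**
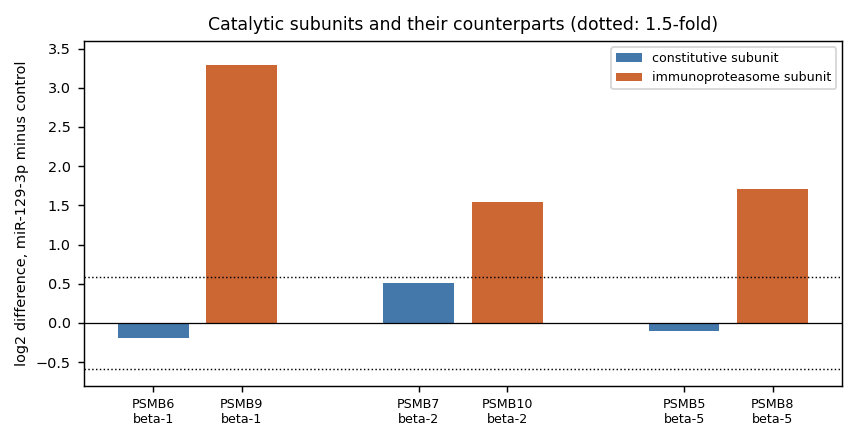
The log2 difference, miR-129-3p minus control, of the catalytic constitutive subunits (blue) and the immunoproteasome subunits that replace them (orange) at each beta position; dotted lines mark 1.5-fold. The orange bars reach 3.30, 1.55 and 1.70, and the blue bars -0.19, 0.50 and -0.11.

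Promoters were read for the ends of this range: PSME1, with the largest difference, its PA28 partner PSME2, and PSMC3, with the lowest. Each line gives the 250 bases before the gene's start from RefSeq (GRCh38.p14), with motif matches in capitals. The windows are chr14:24135944-24136193 (plus strand), chr14:24146611-24146860 (minus strand) and chr11:47426440-47426689 (minus strand).
PSME1: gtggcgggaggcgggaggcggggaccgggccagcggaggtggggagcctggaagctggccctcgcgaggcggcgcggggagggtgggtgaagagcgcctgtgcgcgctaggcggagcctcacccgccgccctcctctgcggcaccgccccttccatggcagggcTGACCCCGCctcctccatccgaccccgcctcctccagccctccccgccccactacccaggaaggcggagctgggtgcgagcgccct
PSME2: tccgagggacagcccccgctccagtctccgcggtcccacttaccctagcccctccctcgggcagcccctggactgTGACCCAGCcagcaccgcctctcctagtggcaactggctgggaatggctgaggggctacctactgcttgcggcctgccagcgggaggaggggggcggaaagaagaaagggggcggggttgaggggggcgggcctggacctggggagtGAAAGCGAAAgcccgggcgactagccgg
PSMC3: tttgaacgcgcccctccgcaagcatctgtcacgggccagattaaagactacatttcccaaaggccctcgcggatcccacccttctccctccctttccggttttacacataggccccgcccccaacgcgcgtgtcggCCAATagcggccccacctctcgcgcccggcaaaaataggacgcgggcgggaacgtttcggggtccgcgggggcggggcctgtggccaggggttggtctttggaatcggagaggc

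The search covered 3 motifs on both strands, from 250 bases before to 50 after each start. They were the core of the antioxidant response element read by NFE2L1 and NFE2L2 (TGACNNNGC), the NF-Y box (CCAAT) and a core of the interferon-stimulated response element (GAAANNGAAA). Matches of different motifs overlapped in 52 of the 35116 promoters. PSME1 held the interferon element at bases 6 to 15 after its start, on the opposite strand, where the gene's strand reads TTTCGCTTTC. In PSME2 the same element, GAAAGCGAAA, ended 19 bases before the start, and the only match in PSMC3 was an NF-Y box. A match is a stretch of letters and not a measured binding site.

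For 33 of the 39 genes the table held 39 promoters, some of them overlapping windows of alternative starts of 1 gene. The interferon element was in 4 of these (10.3%), against 3.57% of all 35116 promoters. Its holders were PSME1 (0.94), PSMA4 (0.50), PSMG4 (0.36) and PSMB4 (-0.06). The antioxidant core was in 12 of 39 (30.8%), against 13.3% of all, and its holders ran from PSME4 at -0.31 to PSME1. The NF-Y box was in 16 of 39 (41.0%), against 34.6% of all. Of the immunoproteasome genes, PSMB10 held the interferon element, as did 1 of the 2 promoters of PSMB8, and PSMB9, with the largest difference of the 3, did not.

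Most other genes of the ubiquitin-proteasome pathway also differed by less than 1.5-fold. Of 32 listed genes 27 were measured, with a median of 0.06, and 1 was at least 1.5-fold higher and 0 lower, against 17.3% and 10.8% of all measured genes. That gene was FBXO7, a ubiquitin ligase subunit that binds PI31, with 1468 for control and 2539 for miR-129-3p, a difference of 0.78, and 0.75 on its other measured probe set. NGLY1, the glycanase that helps to activate NFE2L1, read 1682 and 2483 (0.56). ZFAND5, a zinc-finger protein that stimulates the proteasome, read 5501 and 7908 (0.52). NFE2L1, the transcription factor that raises proteasome gene expression when proteasome activity is low, read 2815 and 3704, a difference of 0.39 with 3 probe sets between 0.33 and 0.47. At the low end were UCHL5, a deubiquitinase of the cap, at -0.46 with another probe set at 0.04, the small lid subunit SEM1 at -0.46, and the deubiquitinase USP5 at -0.20. POMP, the maturation protein of the 20S core, read 5442 and 5706 (0.07).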

How the data were processed

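Per the labels, biotinylated cRNA from 100 ng of total RNA was hybridised to 1 Affymetrix array per group. The deposited intensity values are linear, 1 per probe set; MAS5 and RMA are named in the submitters' processing notes, and which of them made the values, and how the arrays were scaled, is not given in the sources used here. Whether signals were floored or compressed at the dim or the bright end, where most proteasome genes lie, was not tested, and compression would make differences smaller.

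Probe sets were named from the platform annotation: 41091 had 1 gene symbol, 1801 several (left out) and 11721 are unnamed here. Values were analysed as log2(signal + 16), and a gene is its probe set with the highest mean level. Folds are on that scale. With 1 array per group there is no p-value, and the number of arrays limits the precision. The proteasome genes, subcomplexes, pathway list, markers and motifs were chosen with earlier results of these data known. Named were all members, the immunoproteasome subunits, the 3 pathway genes at each end, NFE2L1 and POMP. PSME2 and PSMC3 promoters followed from the rule of showing the extremes and a paralog. The result of 1 planned motif is not reported here. The gene-level code was tested on simulated data. Tools were Python (3.11.15) with pandas 2.3.3 and numpy 2.4.6, statsmodels 0.14.6 for the loess trend, and matplotlib 3.10.9 for figures.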

Additional observations from a re-analysis of the deposited data

Results flagged for a closer look

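Signal also appeared on probe sets outside the comparisons, those that list a proteasome symbol together with a second gene. There were 5 of them, of which 2 passed 1.5-fold on the higher side: one went from 1914 on the control array to 5122 on the other (1.41), and the second from 6255 to 10431 (0.74). Of the other 3, which ran from -0.55 to 0.07, 0 passed 1.5-fold. Among all measured genes 17.3% were at least 1.5-fold higher and 10.8% lower. Which of the listed genes the signals of these 5 probe sets come from was not tested.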

How the results depend on the processing

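Alternatives covered scaling (median centring, quantile normalization, a loess trend), added constants of 1 and 64, no filter, a mean signal of 200, the mean of a gene's probe sets, leaving out _x_at and _s_at probe sets, a 2-fold limit and, chosen after seeing the data, a mean signal of 1000. PSME1 (0.92 to 0.95) and PSMG2 (0.61 to 0.66) passed 1.5-fold under every alternative except the 2-fold limit. Each has 1 bright probe set without those suffixes, so the signal limits and the probe set alternatives could not change its value. At the 2-fold limit the count of higher genes was 0. It was 4 of 38 with the mean of all probe sets, which added PSMA5 and PSMB7, where 13.6% of all measured genes were higher. Without _x_at and _s_at probe sets it was 4 of 28 genes, with PSMC2 and PSMD11 added, and 1 gene, PSMB2, was lower. The shares of all genes were then 17.8% higher and 11.2% lower. Under both of these probe set alternatives the count of higher genes lay near the background. The median over the measured genes ranged from 0.06 to 0.10. The medians kept their sign for the alpha ring (0.30 to 0.51), the beta ring (-0.15 to -0.11), the ATPase ring (0.23 to 0.31) and the chaperones (0.04 to 0.18). They changed sign for the base (-0.08 to 0.01), the lid (-0.03 to 0.06) and the activators (-0.01 to 0.07). Some alternatives also changed which genes enter a median. The 0.51 of the alpha ring came without _x_at and _s_at probe sets, where PSMA1 and PSMA7, nearly equal on both arrays, drop out. Of 366 values of single genes under alternatives, 9 had the opposite sign, in 8 genes with differences of 0.38 or less in size. Many of the 366 could not change sign, because the added constants and the signal limits leave the sign of a gene's difference as it was. The 9 came from the loess trend (3), the mean of a gene's probe sets (4) and leaving out _x_at and _s_at probe sets (2). No paired analysis was possible because each group holds 1 array.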
